A study of Mus musculus with 9 samples.

Results

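The genes described here are 39 markers of macrophages and monocytes, taken by symbol from a gene table of mouse tumors. They form 9 subsets: *Csf1* and its receptor, monocyte genes, pan-macrophage genes, Fc receptors and their adapters, the complement C1q chains, cathepsins, lipid-associated macrophage genes, M2-like genes, and genes of tissue-resident macrophages. The table lists 19481 genes, including all 39, and all 39 were among the 14725 genes that passed the filter on low counts. Bulk RNA was sequenced from 9 tumors of KLN205, a squamous lung carcinoma line of the mouse, with 3 tumors in each of 3 groups. The injected cells carried a SMART doxycycline-inducible shRNA, delivered by lentivirus and kept by puromycin selection. The shRNA was a control, sh2 Tmprss11b or sh3 Tmprss11b, and *Tmprss11b* encodes a transmembrane serine protease. The cells grew under the skin of the flank in young adult female DBA/2 mice with an intact immune system. Mice of all 3 groups received doxycycline once the mean tumor volume had reached 100 mm3, and the tumors were taken on day 50. The shRNA was carried by the carcinoma cells and not by the host macrophages, and each library came from a chunk of whole tumor, so the counts hold both. In such samples fewer cells of a type and less RNA per cell cannot be told apart.

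Monocytes leave the blood through the chemokine receptor Ccr2 and mature into macrophages under the growth factor Csf1, which signals through the receptor Csf1r. Tumor macrophages clear dying cells and immune complexes through Fc receptors and complement C1q, and degrade what they take up with lysosomal cathepsins. Their states are often named by a few genes: a lipid-associated state with *Trem2*, *Apoe* and *Spp1*, an M2-like state with *Mrc1* and *Cd163*, and a tissue-resident type with *Folr2* and *Siglec1*.

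Total counts were between 20653219 and 24047784 per tumor, and 3 counts, taken as the floor of detection, equal 0.125 to 0.145 CPM (counts scaled for depth). This floor covers counting error only. *Tmprss11b*, listed as *Tmprss11bnl*, was lower in all 6 tumors with a targeting shRNA (0.1 to 0.5 CPM) than in the control tumors (0.8 to 2.1 CPM). The targeted tumors were near this floor, and sh2 replicate 2 was under it at 0.0966 CPM. The adjusted p of *Tmprss11b* was 0.999 with sh2 and 0.753 with sh3 (edgeR quasi-likelihood test, Benjamini-Hochberg), so its decrease was not called. A few tumors stood apart from the rest in the members: sh2 replicate 2, sh3 replicate 1 and sh3 replicate 2. Over all genes tested these tumors also had the lowest level most often (16.0%, 22.6% and 17.2% of genes). Several results for the members as a list are therefore also given without 1 of them, but those of single genes mostly are not. The defining markers of macrophages were abundant. *Cd68*, a lysosomal glycoprotein, was at 68.6 to 156 CPM, and *Csf1r* was at 117 to 382 CPM. *Adgre1*, the gene of the F4/80 antigen and no member, was at 45.03 to 236 CPM.

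The members differed widely in abundance. Levels between genes were compared in TPM, which scale for gene length as well as depth. *Apoe*, a lipid carrier, had the highest mean over the 9 tumors, 5066 TPM, and stood at position 9 of all genes in the table. *Lyz2* (lysozyme) followed at 2074 TPM, then *Ctss* (cathepsin S) at 1827 TPM and *C1qa* at 1699 TPM. The tumors spread widely around these means, from 1096 to 10011 TPM for *Apoe* and from 643 to 3046 TPM for *C1qa*, so the order of *Lyz2*, *Ctss* and *C1qa* did not exceed the spread between tumors. The least abundant members were *Il10*, *Chil3* and *Vsig4*. *Il10*, an anti-inflammatory cytokine, had 7 to 20 counts per tumor. *Chil3*, a chitinase-like protein of alternatively activated macrophages, had 2 to 16 counts. *Vsig4*, a complement receptor of resident macrophages, had 0 to 18 counts, and the value of 0 in sh2 replicate 2 allows up to 3 counts.

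**Figure D1:**
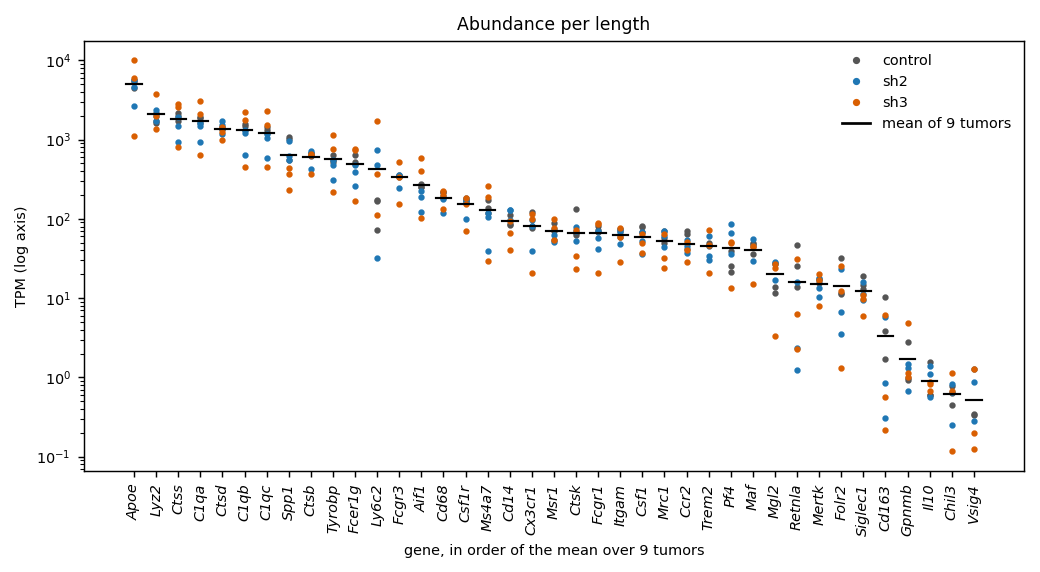
Each point is the level of a gene in 1 tumor in TPM on a log axis, colored by group, and each black line is the mean of 9 tumors. The genes run from *Apoe* at 5066 TPM to *Vsig4* at 0.525 TPM, and the sh3 tumors (orange) are often both the highest and the lowest point of a gene. The *Vsig4* value of 0 in sh2 replicate 2 cannot be drawn on this axis.

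The main feature of the members was their division between tumors of 1 group. Of the 39 members, 26 were lowest in sh3 replicate 1 (66.7%, against 22.6% of all genes tested), and 21 were highest in sh3 replicate 2 (53.8%, against 22.2% of all genes). Both held for 18 members (46.2%, against 8.93% of all genes), so the extremes of 18 members lay within the sh3 group. Sh3 replicate 1 was also the highest tumor for 22.0% of all genes, but for only 4 members: *Ly6c2*, *Gpnmb*, *Chil3* and *Vsig4*. In the 18 members the highest tumor exceeded the lowest by 2.19-fold (*Ctsb*) to 11.6-fold (*Apoe*), with a median of 4.92-fold. Outside the members, 4 of 5 endothelial markers were also lowest in sh3 replicate 1, and 0 of them were highest in sh3 replicate 2. These shares describe the 9 tumors and were not tested.

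The 18 members were spread over 8 of the 9 subsets. They were all 4 Fc receptor genes and all 3 C1q chains, 3 of 6 pan-macrophage genes (*Lyz2*, *Aif1* and *Ms4a7*), 2 of 4 cathepsins (*Ctsb* and *Ctss*) and 2 of 4 lipid-associated genes (*Trem2* and *Apoe*). The others were *Csf1r*, the scavenger receptor gene *Msr1*, and *Mertk* and *Maf* of the tissue-resident subset. No monocyte gene showed the pattern. Measured against the mean of the control tumors, the median member stood at −1.14 (log2) in sh3 replicate 1, 0.50 in sh3 replicate 2 and 0.17 in sh3 replicate 3. The values were −0.04, −0.59 and −0.10 in sh2 replicates 1 to 3, and −0.09 to 0.04 in the control tumors. By this median the control tumors were alike, sh2 replicate 2 was below the other sh2 tumors, and the sh3 tumors lay on both sides of the control. Single members could differ more between control tumors, as did *Cd163* (3.27 to 18.7 CPM) and *Spp1* (394 to 715 CPM).

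**Figure D2:**
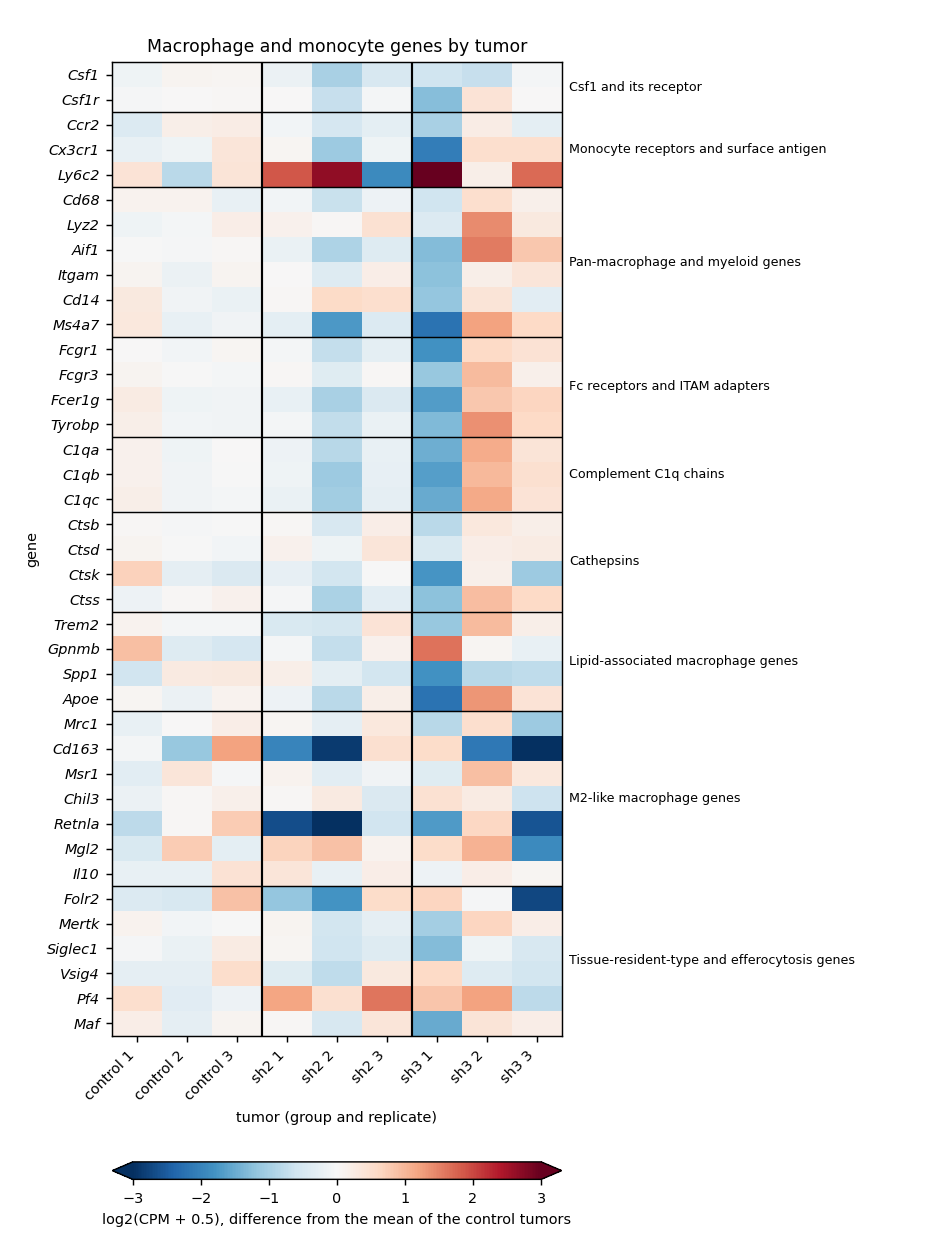
Rows are the 39 genes in their subsets and columns are the 9 tumors. Color is log2(CPM + 0.5) minus the mean of the control tumors, from blue (lower) to red (higher), with values beyond 3 shown at the end of the scale. The column of sh3 replicate 1 is blue and that of sh3 replicate 2 red for most genes from *Csf1r* to *Apoe*, while *Ly6c2*, *Cd163*, *Retnla*, *Folr2* and *Pf4* follow other patterns.

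The spread within groups restates the same levels in another measure and is not a separate result. The standard deviation (SD) of log2(CPM + 0.5) within a group had a median over the members of 0.212 in the control, 0.382 in sh2 and 1.04 in sh3 tumors. Over all genes tested the medians were 0.172, 0.208 and 0.324. The member's SD exceeded the median of all genes for 22 of 39 members in the control group, 39 of 39 in sh2 and 38 of 39 in sh3. The sum of the T and NK cell markers (7 of 7 measured) was 73.6 to 88.4 CPM in control, 23.7 to 93.0 CPM in sh2 and 53.0 to 153 CPM in sh3 tumors, with its lowest value in sh2 replicate 2. The sum of the dendritic cell markers (7 of 7 measured) was lowest in sh3 replicate 1 at 106 CPM and highest in sh3 replicate 2 at 256 CPM. Of the 7, only *Itgax*, which macrophages also express, had both extremes in these tumors. By gene, 2 were lowest in sh3 replicate 1 and 4 in sh2 replicate 2 (22.6% and 16.0% of all genes). The fibroblast markers (6 of 6 measured) summed to 2992 to 5312 CPM in control, 2335 to 3915 CPM in sh2 and 1240 to 2200 CPM in sh3 tumors. No marker of these 3 lists was at 0 in all tumors, and their part in the levels of the members was not tested.

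No member passed the threshold in any comparison. By edgeR's quasi-likelihood test with Benjamini-Hochberg adjustment over the 14725 genes, 0 genes (0.0%) had a false discovery rate (FDR) under 0.05 for sh2 against control, sh3 against control, the mean of both against control, or sh3 against sh2. At an unadjusted edgeR p under 0.05 there were 518 genes (3.52%) for sh2, 976 (6.63%) for sh3, 602 (4.09%) for the mean of both and 1057 (7.18%) for sh3 against sh2. Of the members there were 0, 1, 2 and 2 in the same order, which is 0.0%, 2.56%, 5.13% and 5.13%. These shares are near or below those of all genes. DESeq2's Wald test called 2, 41, 9 and 48 genes in the 4 comparisons, and none was a member.

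**Figure D3:**
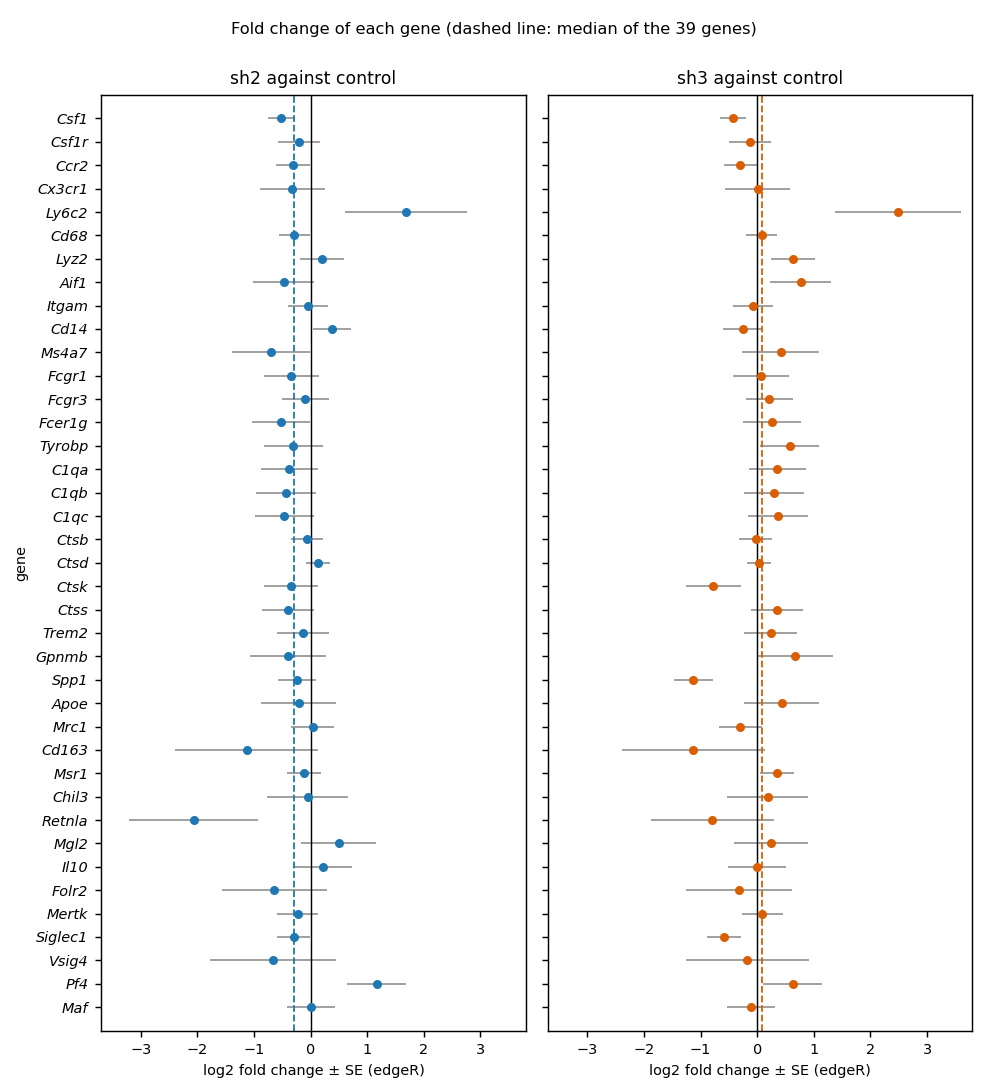
Points are the log2 fold changes of the 39 genes against the control tumors, with bars of 1 standard error from edgeR (3 tumors per group), for sh2 (left) and sh3 (right). The dashed lines are the medians of the 39 genes, −0.29 for sh2 and 0.08 for sh3, and no gene has an FDR under 0.05.

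With sh2, the members lay mostly below the control by small amounts. Their median log2 fold change was −0.29, against 0.01 over all genes tested, and 30 of 39 were negative. The groups did not overlap for 7 members, and in all 7 every sh2 tumor was below every control tumor (17.9% of members, against 5.83% of all genes in that direction and 11.4% in either). These were *Csf1*, *Aif1*, *Ms4a7*, *Fcer1g*, *C1qa*, *C1qb* and *C1qc*. They are not independent of each other: the C1q chains varied together from tumor to tumor, and all were read in the same tumors. Their share is therefore a description and was not tested. Each had p = 0.1 in the exact permutation test (two-sided), the smallest that 3 tumors against 3 allow. Groups that do not overlap always give this value, so it adds nothing to the way these genes were picked. The shift depended on sh2 replicate 2: without it the median was −0.12, and without sh2 replicate 1 it was −0.40. In sh2 replicate 2 the C1q chains, the T and NK cell markers and the fibroblast markers were all at their lowest of the sh2 group.

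With sh3, the direction of the list depended on which tumor was counted. The median log2 fold change was 0.08, against 0.03 over all genes, and 23 members were positive and 16 negative. Without sh3 replicate 1 the median was 0.28. In that fit 13 members were higher than control at an unadjusted edgeR p under 0.05 (33.3%, against 8.70% of all genes): *Lyz2*, *Aif1*, *Ms4a7*, *Fcgr1*, *Fcgr3*, *Fcer1g*, *Tyrobp*, *C1qa*, *C1qb*, *C1qc*, *Ctss*, *Apoe* and *Msr1*. In the same fit *Spp1* and *Cd163* were lower (5.13%, against 5.75%). Without sh3 replicate 2 the median was −0.26 instead. In that fit 7 members were lower (17.9%, against 4.85%): *Ccr2*, *Cd14*, *Ctsk*, *Spp1*, *Mrc1*, *Retnla* and *Siglec1*. Of the others only *Ly6c2* was higher (2.56%, against 3.32%). Both tumors were left out because the members stood apart in them. The shares above those of all genes therefore restate that choice and are not separate results. The lowest FDR of a member in these fits was 0.249 without replicate 1 and 0.512 without replicate 2 (edgeR quasi-likelihood test, Benjamini-Hochberg adjusted), so no call was made in either.

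Between the shRNAs, the median member was 0.32 (log2) higher in sh3 than in sh2, and 28 of 39 were positive. At an unadjusted edgeR p under 0.05, *Aif1* was higher (2.56% of members, against 3.52% of all genes) and *Spp1* was lower (2.56%, against 3.66%). Without sh3 replicate 1, 17 members were higher in sh3 at that level (43.6%, against 11.2% of all genes), with a lowest FDR of 0.150 (edgeR quasi-likelihood test, Benjamini-Hochberg adjusted). Without sh3 replicate 2, 0 were higher (0.0%, against 2.71%), 4 were lower (10.3%, against 4.52%), and the median was −0.06. As with the control, the shares above those of all genes restate the choice of the tumor left out. For the mean of both shRNAs against control the median was −0.05. *Csf1* and *Spp1* were the only members with an unadjusted edgeR p under 0.05 in that comparison, both lower (5.13%, against 2.74%), and no member had groups that did not overlap (0.0%, against 2.17% of all genes). Without sh2 replicate 2, 0 members were lower at that level for the mean of both (0.0%, against 2.06% of all genes). Without control replicate 2 or 3 there were also 0, against 4.37% and 2.03% of all genes in either direction. The comparisons with the control share the control tumors.

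The ratio of the growth factor to its receptor varied more among the sh3 tumors than within the control or sh2 tumors. *Csf1* was at 128, 150.2 and 147 CPM in control tumors 1 to 3, 126, 71.5 and 101 CPM in sh2 and 93.9, 87.4 and 136 CPM in sh3. All sh2 tumors and 2 of 3 sh3 tumors were below every control tumor. Its log2 fold change was −0.52 (SE 0.23, FDR = 0.999, edgeR quasi-likelihood test, Benjamini-Hochberg adjusted) with sh2 and −0.42 (SE 0.23, FDR = 0.760) with sh3. For the mean of both it was −0.47 (SE 0.20), and the exact permutation test gave p = 0.0595. *Csf1r*, which marks monocytes and macrophages, was at 279, 286 and 291 CPM in control tumors 1 to 3, 289, 177 and 275 CPM in sh2 and 117, 382 and 286 CPM in sh3. Sh3 replicates 1 and 2 were the lowest and the highest of all tumors. The ratio of *Csf1* to *Csf1r* in TPM was 0.403 to 0.461 in control and 0.322 to 0.381 in sh2 tumors, so every sh2 tumor was below every control tumor. It ran from 0.201 in sh3 replicate 2 to 0.706 in sh3 replicate 1, because the receptor differed between these tumors more than the ligand. Sh3 replicate 3, at 0.417, was within the control range. These ratios were not tested. *Csf1* is also made by fibroblasts and carcinoma cells. The fibroblast markers were lowest in sh3, and their part in the level of *Csf1* was not tested.

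The monocyte genes differed among themselves. *Ccr2*, the receptor for the chemokine Ccl2, was at 64.6 to 101 CPM in control, 60.4 to 81.3 CPM in sh2 and 43.6 to 100.4 CPM in sh3 tumors. *Cx3cr1*, the fractalkine receptor of patrolling monocytes and resident macrophages, was at 122 to 183 CPM in control, 66.5 to 150 CPM in sh2 and 33.4 to 203 CPM in sh3. Both were lowest in sh3 replicate 1. *Ly6c2*, a surface antigen of inflammatory monocytes, was at 57.3, 24.4 and 56.0 CPM in control tumors 1 to 3, 158, 272 and 11.01 CPM in sh2 and 581, 48.7 and 141 CPM in sh3. It was therefore highest in the tumor with the lowest *Csf1r*, and lowest in sh2 replicate 3. Its 52.8-fold range over the tumors was the widest among members above the floor in every tumor. The log2 fold change was 1.68 (SE 1.08, FDR = 0.999) with sh2 and 2.49 (SE 1.11, FDR = 0.753) with sh3 by edgeR's quasi-likelihood test with Benjamini-Hochberg adjustment. The exact permutation test gave p = 0.6 and p = 0.3. *Ly6c2* has a near-identical neighbor, *Ly6c1*, which T cells and endothelial cells also express, and how reads shared by both were counted is not given in the sources used here, so its level is uncertain. *Ly6c1* was at 1261 to 2991 CPM and was highest in sh2 replicate 2, not in sh3 replicate 1, where it was at 1453 CPM.

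**Figure D4:**
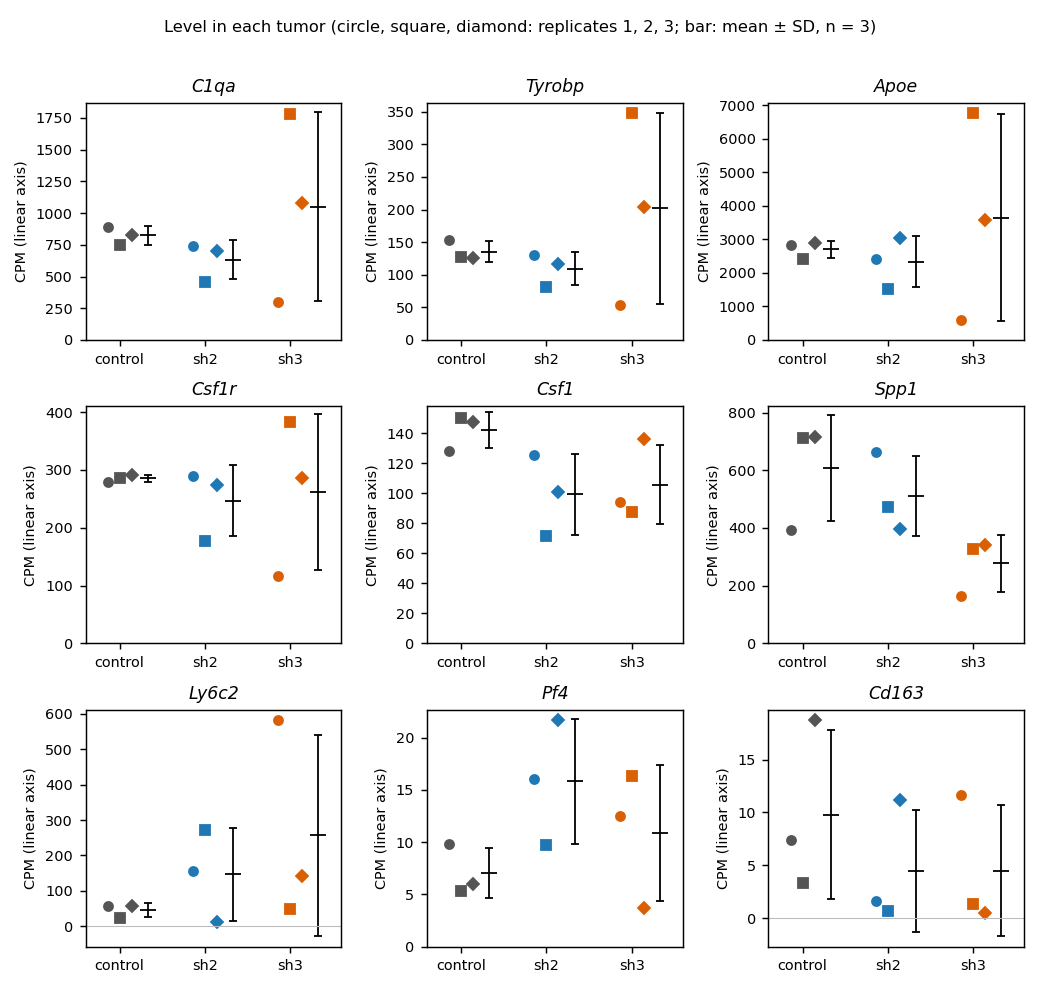
Levels of 9 genes in CPM on linear axes, by group, with circles, squares and diamonds for replicates 1, 2 and 3 and a bar for the mean ± SD (n = 3). *C1qa*, *Tyrobp*, *Apoe* and *Csf1r* have a low circle and a high square in sh3, *Spp1* lies below all control tumors in sh3, and *Ly6c2* has its high circle in sh3 at 581 CPM.

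The pan-macrophage genes followed the common pattern to different degrees. *Aif1*, an actin-binding protein of macrophages, was at 93.3, 93.0 and 97.5 CPM in control tumors 1 to 3, 82.4, 49.2 and 72.0 CPM in sh2 and 38.1, 279 and 166 CPM in sh3. The sh2 tumors were all below the narrow control range, and the sh3 tumors were on both sides of it. Its log2 fold change for sh3 against sh2 was 1.24 (SE 0.55, FDR = 0.673, edgeR quasi-likelihood test, Benjamini-Hochberg adjusted). *Ms4a7*, a tetraspan membrane protein of mature macrophages, was at 87.7 to 129 CPM in control, 30.6 to 83.8 CPM in sh2 and 21.8 to 238 CPM in sh3. *Lyz2* was at 809 ± 102 CPM (SD, n = 3) in control, 933 ± 145 in sh2 and 1248 ± 803 in sh3 tumors. *Itgam*, an integrin of myeloid cells in general, ranged from 56.4 to 173 CPM. *Cd14*, the co-receptor for lipopolysaccharide, was at 51.0 to 72.4 CPM in control, 60.3 to 88.0 CPM in sh2 and 26.0 to 76.6 CPM in sh3. It differed from the others in sh2 replicate 2, where it was at its highest of all tumors.

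All 4 genes of Fc receptors and their adapters showed the pattern. *Tyrobp*, the adapter through which Trem2 and other receptors signal, was at 154, 127 and 126 CPM in control tumors 1 to 3, 130, 80.6 and 117 CPM in sh2 and 53.1, 347 and 205 CPM in sh3. *Fcer1g*, the shared signaling chain of Fc receptors, was at 181, 138 and 141 CPM in control, 130.04, 76.8 and 112 CPM in sh2 and 47.2, 265 and 236 CPM in sh3. In both genes 1 sh3 tumor was below and 2 were above every control tumor. *Fcgr1*, the high-affinity IgG receptor, ranged from 22.6 to 122 CPM, and *Fcgr3*, a low-affinity receptor, from 89.8 to 382 CPM. NK cells and neutrophils also express some of these genes.

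The 3 chains of C1q, the recognition unit of the classical complement pathway, varied together from tumor to tumor. *C1qa* was at 892, 749 and 829 CPM in control tumors 1 to 3, 738, 459 and 702 CPM in sh2 and 296, 1781 and 1077 CPM in sh3. *C1qb* was at 597 to 706 CPM in control, 306 to 590 CPM in sh2 and 207 to 1280 CPM in sh3, and *C1qc* was at 541 to 658 CPM, 284 to 509 CPM and 204 to 1288 CPM. The log2 fold changes with sh2 were −0.38 (SE 0.51), −0.43 (SE 0.53) and −0.46 (SE 0.53) for the A, B and C chains. With sh3 they were 0.35 (SE 0.51), 0.29 (SE 0.53) and 0.36 (SE 0.53), all within 1 SE of 0. Although the level of *C1qa* in CPM varied 6.01-fold, the ratio of *C1qb* to *C1qa* in TPM stayed between 0.679 and 0.848 and that of *C1qc* to *C1qa* between 0.635 and 0.757. The ratio of *Apoe* to *C1qa* was 1.70 to 3.75, that of *Spp1* to *C1qa* 0.120 to 0.673, and that of *Ly6c2* to *C1qa* 0.0212 to 2.65. These ratios are between genes of the same library and share its depth.

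**Figure D5:**
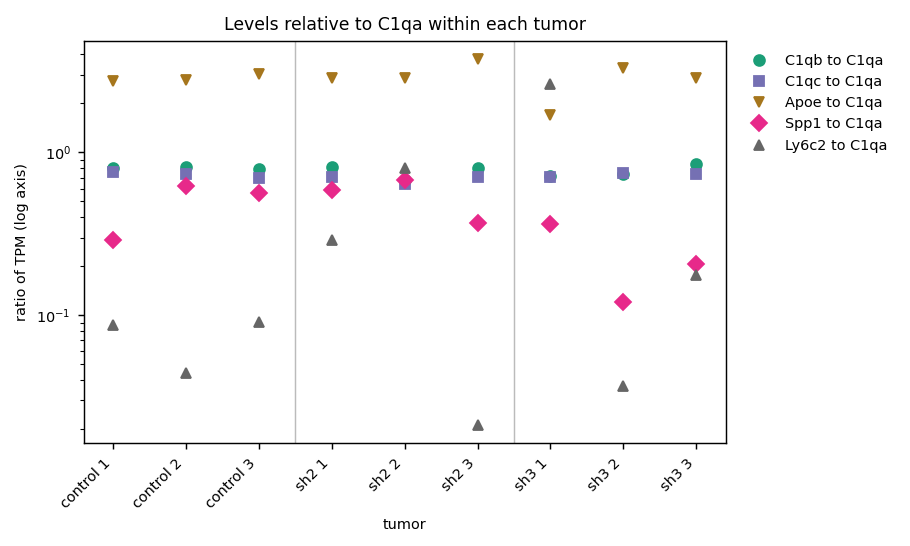
Each point is the TPM of a gene divided by the TPM of *C1qa* in the same tumor, on a log axis. *C1qb* and *C1qc* stay between 0.635 and 0.848 in all 9 tumors, *Spp1* is lowest in sh3 replicates 2 and 3 at 0.120 and 0.208, and *Ly6c2* runs from 0.0212 to 2.65.

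Promoter sequences were available for 30 of the 39 members, as windows of 250 bases before to 50 bases after the RefSeq transcription start (GRCm38.p6, which is mm10). The motifs searched, 3 in all, were read on both strands: GAGGAA, the core bound by the macrophage factor PU.1, CACGTG, the E-box of the lysosomal regulators Tfeb and Mitf, and TGCTGA, a site core for Maf factors. GAGGAA was found in 19 of the 30 members (63.3%), against 31.3% of 27025 genes with a window. TGCTGA was found in 8 members (26.7%, against 21.7% of genes) and CACGTG in 1 (3.33%, against 8.09%). A match is a description of letters, not of a bound site, and these genes have no binding data here. CACGTG reads the same on both strands. The windows shown are those of the C chain and B chain genes, which share a locus and varied together, of *Spp1*, which did not follow them, and of *Ctsd*, the member with the narrowest range and the single one with CACGTG. Each is read 5′ to 3′ on the strand of its gene, and capitals mark matches to the motifs or their reverse complements (TTCCTC for GAGGAA). In these 4 windows no match overlapped one of another motif.
C1qb promoter, chr4:136886151-136886450, minus strand: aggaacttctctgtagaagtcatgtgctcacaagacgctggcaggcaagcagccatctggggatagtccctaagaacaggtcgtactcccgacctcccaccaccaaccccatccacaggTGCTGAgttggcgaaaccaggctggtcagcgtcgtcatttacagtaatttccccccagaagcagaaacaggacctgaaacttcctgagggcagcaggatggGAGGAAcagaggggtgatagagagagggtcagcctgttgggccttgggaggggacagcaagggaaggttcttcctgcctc
C1qc promoter, chr4:136892865-136893164, minus strand: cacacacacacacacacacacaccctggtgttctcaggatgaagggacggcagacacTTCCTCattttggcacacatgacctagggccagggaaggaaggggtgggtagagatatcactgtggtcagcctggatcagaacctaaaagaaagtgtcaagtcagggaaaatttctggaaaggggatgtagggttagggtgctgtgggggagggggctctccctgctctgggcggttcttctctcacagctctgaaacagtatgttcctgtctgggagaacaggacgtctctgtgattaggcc
Spp1 promoter, chr5:104434861-104435160, plus strand: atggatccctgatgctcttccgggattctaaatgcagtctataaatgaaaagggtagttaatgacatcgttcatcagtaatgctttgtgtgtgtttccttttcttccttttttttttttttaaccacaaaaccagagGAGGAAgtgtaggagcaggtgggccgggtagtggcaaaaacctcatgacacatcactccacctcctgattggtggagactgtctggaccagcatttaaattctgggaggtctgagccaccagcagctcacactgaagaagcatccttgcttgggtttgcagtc
Ctsd promoter, chr7:142387778-142388077, minus strand: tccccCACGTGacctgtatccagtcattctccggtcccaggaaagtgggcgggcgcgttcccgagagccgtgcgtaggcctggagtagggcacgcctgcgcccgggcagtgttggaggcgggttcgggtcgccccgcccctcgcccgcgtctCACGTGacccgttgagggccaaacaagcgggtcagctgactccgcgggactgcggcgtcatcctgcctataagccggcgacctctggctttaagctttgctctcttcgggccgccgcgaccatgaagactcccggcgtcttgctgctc

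The window of *C1qb* held GAGGAA 30 bases before the start and TGCTGA 131 bases before it, and that of *C1qc* held GAGGAA on the other strand 193 bases before the start. *Spp1* held GAGGAA 113 bases before this start, and the window of its second listed start held none of the motifs. Of the members in the common pattern with a window, *Aif1*, *Apoe*, *C1qb*, *C1qc*, *Ctss*, *Fcgr1*, *Fcgr3*, *Ms4a7* and *Trem2* held GAGGAA. *Fcer1g*, *Lyz2* and *Mertk* did not. Members outside the pattern were also divided: *Spp1* and *Cd68*, among others, held it, and *Ctsd* and *Cd163*, among others, did not. Whether GAGGAA goes with the pattern was not tested. *Ctsd* held CACGTG at 2 places, 245 and 98 bases before the start.

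The cathepsins, proteases of the lysosome, varied less than the C1q chains by the fold between the highest and the lowest tumor, which was 1.78 for *Ctsd* to 5.70 for *Ctsk*, against 6.01 for *C1qa* to 6.31 for *C1qc*. *Ctsd* ranged from 822 to 1461 CPM and *Ctsb* from 740 to 1620 CPM. *Ctss*, which cleaves the invariant chain during antigen presentation, was at 993, 1134 and 1203 CPM in control tumors 1 to 3, 1077, 575 and 883 CPM in sh2 and 473, 2092 and 1685 CPM in sh3. *Ctsk*, a collagen-degrading enzyme of osteoclasts that fibroblasts also make, was at 89.1, 45.2 and 40.4 CPM in control, 45.7, 37.3 and 54.1 CPM in sh2 and 15.6, 61.2 and 25.4 CPM in sh3. All 4 cathepsins were lowest in sh3 replicate 1, but only *Ctsb* and *Ctss* were highest in sh3 replicate 2. Of the osteoclast markers (3 of 5 tested), *Acp5*, which macrophages also express, gave most of the sum, and *Calcr*, the calcitonin receptor, had 0 counts in all tumors but 1.

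*Spp1* was the member whose sh3 tumors all lay apart from the rest. It encodes osteopontin, a secreted phosphoprotein that tumor macrophages and carcinoma cells both make. It was at 394, 711 and 715 CPM in control tumors 1 to 3, 664, 474 and 396 CPM in sh2 and 165, 326 and 342 CPM in sh3. Every sh3 tumor was below every control and every sh2 tumor, also in sh3 replicate 2 where most members were highest. *Spp1* was the only member whose groups did not overlap for sh3 against control (2.56% of members, against 5.44% of all genes in that direction and 12.2% in either). It was also the only one for sh3 against sh2 (2.56%, against 4.62% in that direction and 10.1% in either). Its log2 fold change with sh3 was −1.13 (SE 0.34). Its unadjusted edgeR p was under 0.05 (2.56% of members, against 3.13% of all genes in that direction), and the FDR was 0.753 by edgeR's quasi-likelihood test with Benjamini-Hochberg adjustment. Against sh2 it was −0.88 (SE 0.34, FDR = 0.673, same edgeR test). The exact permutation test gave p = 0.1 in both, the smallest possible, which groups that do not overlap always give. The value against control, refitted without each of the tumors, stayed between −1.37 and −0.86. With sh2 it was −0.25 (SE 0.34), and the sh2 and control tumors overlapped. The fibroblast markers were also lower in every sh3 tumor than in every control tumor, and their part in the level of *Spp1* was not tested.

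The other lipid-associated genes did not follow *Spp1*. *Apoe* was at 2824, 2406 and 2888 CPM in control tumors 1 to 3, 2429, 1532 and 3044 CPM in sh2 and 584, 6767 and 3592 CPM in sh3. *Trem2*, a lipid-sensing receptor that signals through Tyrobp, was at 21.7 to 24.6 CPM in control, 15.7 to 30.2 CPM in sh2 and 10.03 to 44.5 CPM in sh3. Both had the low sh3 replicate 1 and the high sh3 replicate 2. *Gpnmb*, a glycoprotein of lysosome-rich macrophages that melanocytic and other cells also make, was low throughout, at 1.16 to 7.91 CPM, and was highest in sh3 replicate 1.

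The M2-like genes showed no common direction with either shRNA, with 3 of 7 positive in each, and their median log2 fold change was −0.05 with sh2 and 0.00 with sh3. *Mrc1*, the mannose receptor, was at 112 to 150.2 CPM in control, 107 to 161 CPM in sh2 and 60.5 to 185 CPM in sh3. *Msr1* was at 93.8, 150 and 114 CPM in control, 125, 93.9 and 109 CPM in sh2 and 90.8, 217 and 147 CPM in sh3. *Mgl2*, a galactose-type lectin, was at 7.62 to 18.4 CPM in control, 11.5 to 20.2 CPM in sh2 and 2.48 to 22.8 CPM in sh3. In *Mrc1* and *Mgl2* the lowest tumor was sh3 replicate 3, not replicate 1. *Retnla*, a secreted protein induced by interleukin 4, was at 3.49, 6.54 and 11.3 CPM in control, 0.590, 0.338 and 4.13 CPM in sh2 and 1.62, 10.1 and 0.642 CPM in sh3. Its log2 fold change with sh2, −2.06 (SE 1.14, FDR = 0.999, edgeR quasi-likelihood test, Benjamini-Hochberg adjusted), was the most negative of the members, and sh2 replicate 3 overlapped the control tumors.

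*Cd163* and *Folr2* shared a pattern that differed from the common one. *Cd163*, the receptor that takes up hemoglobin with haptoglobin, was at 7.41, 3.27 and 18.7 CPM in control tumors 1 to 3, 1.60, 0.628 and 11.1 CPM in sh2 and 11.6, 1.37 and 0.471 CPM in sh3. *Folr2*, a folate receptor of resident macrophages, was at 5.41, 5.13 and 13.8 CPM in control, 2.99, 1.74 and 10.9 CPM in sh2 and 11.7, 7.16 and 0.684 CPM in sh3. Both were highest in control replicate 3 and next in sh3 replicate 1 and sh2 replicate 3, and both were lowest in sh3 replicate 3. *Vsig4*, close to the floor, was highest in the same 3 tumors, at 0.737 CPM in control replicate 3, 0.542 CPM in sh2 replicate 3 and 0.786 CPM in sh3 replicate 1, and was at 0 to 0.213 CPM in the others. The skeletal muscle markers (5 of 5 measured) summed to 2649 CPM in control replicate 3 and 874 CPM in sh3 replicate 1, but to 3.4 CPM in sh2 replicate 3. The adipocyte markers (3 of 4 tested) summed to 5.7 to 10.8 CPM in control tumors and 11.1 CPM in sh2 replicate 3, to 1.2 CPM in sh3 replicate 1, and to at most 0.2 CPM in the other 4 tumors. The part of muscle and fat around the tumors in the levels of *Cd163* and *Folr2* was not tested. The log2 fold changes of *Cd163* were −1.13 with sh2 (SE 1.27) and −1.13 with sh3 (SE 1.27), within 1 SE of 0.

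Of the remaining resident-type genes, *Mertk* and *Maf* followed the common pattern, and *Siglec1* and *Pf4* did not. *Mertk*, a receptor for dying cells, was at 23.3 to 26.5 CPM in control, 16.6 to 26.2 CPM in sh2 and 11.9 to 38.6 CPM in sh3. *Maf*, a transcription factor of mature macrophages that T cells also express, was at 55.5 to 77.6 CPM in control and 23.5 to 88.8 CPM in sh3. *Siglec1*, a sialic acid receptor, was at 35.9 to 48.9 CPM in control, 27.2 to 42.8 CPM in sh2 and 16.4 to 37.7 CPM in sh3. *Pf4*, a chemokine of resident macrophages and platelets, was at 9.80, 5.30 and 6.02 CPM in control, 16.0, 9.76 and 21.7 CPM in sh2 and 12.5, 16.4 and 3.72 CPM in sh3. One sh2 tumor fell within the control range and 2 above it. The log2 fold change with sh2 was 1.17 (SE 0.52, FDR = 0.999, edgeR quasi-likelihood test, Benjamini-Hochberg adjusted). The megakaryocyte and platelet markers (3 of 4 tested) summed to 13.1 to 16.7 CPM in control and 11.7 to 18.5 CPM in sh2 tumors, and *Gp9* was at 0 counts in all tumors but 1.

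A list of 37 other macrophage genes, none a member, gave a similar picture. All 37 were tested, and none had an FDR under 0.05 in any comparison (edgeR quasi-likelihood test, Benjamini-Hochberg adjusted). Of the 37, 13 were lowest in sh3 replicate 1 and highest in sh3 replicate 2 (35.1%, against 8.93% of all genes). Among them were *Adgre1*, the lineage factor *Spi1* (PU.1, 23.6 against 122 CPM), *Mpeg1*, the monocyte chemokine *Ccl2*, and the checkpoint receptor *Sirpa*. The list's median log2 fold change was −0.23 with sh2 and 0.11 with sh3. At an unadjusted edgeR p under 0.05 with sh2, *Csf2*, *Arg1* and *Marco* were higher and *Il34* was lower (10.8% of the list, against 3.52% of all genes). *Marco* was also higher with sh3 (2.7%, against 6.63%), and *Arg1* and *Marco* for the mean of both (5.41%, against 4.09%). Between the shRNAs *Axl* and *Ctsz* were higher and *Csf2* lower in sh3 (8.11%, against 7.18%). In the last 3 comparisons the share of the list was below or near that of all genes.

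*Arg1*, the arginase of suppressive myeloid cells, was at 23.6, 32.7 and 16.4 CPM in control tumors 1 to 3, 69.6, 171 and 180 CPM in sh2 and 42.4, 106 and 11.1 CPM in sh3. All sh2 tumors were above every control tumor, as they were for 5.56% of all genes, and so were 2 of 3 sh3 tumors. The log2 fold change was 2.53 with sh2 (SE 0.72) and 1.14 with sh3 (SE 0.69), and neither passed the adjusted threshold. *Marco*, a scavenger receptor, was at 0.16 to 0.30 CPM in control, 0.46 to 0.93 CPM in sh2 and 0.37 to 1.37 CPM in sh3 tumors, near the floor in the control. *Csf2*, the growth factor GM-CSF, was at 18.6 CPM in sh2 replicate 2 and at 0.77 to 4.30 CPM in the other tumors. *Il34*, the second ligand of Csf1r, was at 43.8 to 52.9 CPM in control, 16.8 to 38.97 CPM in sh2 and 34.1 to 52.0 CPM in sh3. Its sh2 tumors were all below every control tumor, as for *Csf1* and for 5.83% of all genes.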

How the data were processed

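The authors, per the submitters' processing notes, checked reads with FastQC, aligned them with STAR 2.5.3a (genome build mm10) and counted them with featureCounts. Annotation, strand setting and treatment of multi-mapped reads are not given in the sources used here. The deposited table holds raw counts, which were analysed. The deposited normalized signal (CPM) was used only to check the counts, and the deposited TPM for levels between genes. The authors' 10 comparison columns (log2 fold changes, test scores and p-values) were not used.

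Counts of all 9 tumors were fitted in edgeR 4.0.16 (R 4.3.3) with 1 term per group, after filterByExpr by group and TMM scaling, with robust quasi-likelihood fits and Benjamini-Hochberg adjustment (FDR threshold 0.05). Tumors are separate mice. Exact permutation tests were two-sided, on mean log2(CPM + 0.5). Genes described tumor by tumor were the most abundant member of each subset, members with an unadjusted p under 0.05, and members whose groups did not overlap. *Cd163*, *Folr2*, *Retnla*, *Ctsk*, *Ly6c1* and the members described by ranges were named beside that rule. Other genes came from lists. The members and lists were chosen with earlier results of these data known. Alternatives were DESeq2 1.42.0, its size factors, the edgeR likelihood ratio test, other filters, only the groups compared, a replicate block, and each tumor left out. Promoters are RefSeq windows (GRCm38.p6). Figures used Python 3.11.15 and matplotlib 3.10.9. Other data types of the study were not analysed here.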

Additional observations from a re-analysis of the deposited data

How the results depend on the processing

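No member had an FDR under 0.05 under any alternative, so no call was gained, lost or reversed. The median of the members with sh3, not a called value, changed sign without sh3 replicate 2, as did that for sh3 against sh2, and the median for the mean of both changed sign without sh2 replicate 2 (0.02) or sh3 replicate 1 (0.11). A count was taken as unmoved within 1.5 times its main value, and a median within 0.406 (log2), the SD between tumors of a group of the mean level of the members. By these limits 185 values that answer a comparison did not move, the medians that changed sign among them, and 7 counts of genes over the whole table did. The limit of 0.406 is wider than every main median of the members. A median could therefore change sign and still count as unmoved, and these labels are no measure of its stability. DESeq2's Wald test called 2 genes with sh2, 41 with sh3, 9 for the mean of both and 48 for sh3 against sh2, against 0 in each with edgeR's quasi-likelihood test. The edgeR likelihood ratio test called 8 with sh3, 8 for the mean of both and 14 for sh3 against sh2. The cause was not tested. With each tumor left out in turn, every count of calls was 0. The median of the members then ranged from −0.40 to −0.12 with sh2, −0.26 to 0.28 with sh3, −0.25 to 0.11 for the mean of both and −0.06 to 0.40 for sh3 against sh2. Replicate numbers are shared between groups but gave no sign of pairing. After removal of group means, the 9 same-numbered pairs of tumors had a mean correlation of −0.099, against 0.052 for the 18 other pairs. With the replicate block, 0 genes were called, the member medians were −0.25, 0.02, −0.11 and 0.27, and genes at an unadjusted p under 0.05 went from 518 to 319 with sh2 and from 602 to 395 for the mean of both. Genes near the floor of 0.125 to 0.145 CPM, such as *Vsig4*, *Chil3*, *Il10*, *Marco* and *Tmprss11b*, are limited by depth. The exact tests of 3 tumors against 3 are limited to p = 0.1.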

Other observations

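The markers of further cell types, summed per tumor, varied as follows. Neutrophil markers (7 of 8 in the table, 6 tested) were at 88.4 to 176 CPM in control, 102 to 184 CPM in sh2 and 56.4 to 158 CPM in sh3 tumors. Their sum was lowest in sh3 replicate 1. Of the 6 tested, however, 1 was lowest in that tumor and 4 in sh3 replicate 3 (22.6% and 10.1% of all genes). The B and plasma cell markers (4 of 4) were at 3.5 to 26.7 CPM in control, 1.9 to 70.7 CPM in sh2 and 18.4 to 72.3 CPM in sh3. The mast cell markers (3 of 4 tested) were at 10.0 to 20.7 CPM over all tumors, and the endothelial markers (5 of 5) at 138 CPM in sh3 replicate 1 and 185 to 242 CPM in the other tumors. The epithelial and squamous markers (7 of 7), which the carcinoma cells express, were at 2147 to 3391 CPM in control, 2486 to 4624 CPM in sh2 and 2619 to 2833 CPM in sh3, highest in sh2 replicate 2 and with no extreme in sh3 replicate 1 or 2.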
